A study of Rattus norvegicus with 2 samples.

Results

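The genes described here encode 9 proteins of glycogen synthesis and breakdown in skeletal muscle. They were taken by gene symbol as the phosphorylase kinase subunits Phkb, Phka1 and Phkg1, the glycogen phosphorylase Pygm, the synthetic enzymes Gbe1, Ugp2 and Gyg1, and the phosphatase targeting subunits Ppp1r3a and Ppp1r3c. Of the 9 genes, 8 had a named probe, out of 13337 genes with a named probe on the array, and each of the 8 had 1 probe. Ppp1r3c had none and was not analysed here. RNA came from skeletal muscle of male Wistar rats aged 8 to 10 weeks, and streptozotocin, which destroys the beta cells of the pancreas, had been used to make the rats diabetic. The labels of the samples are Mock and EA. The latter stands for electroacupuncture, given at the ST36 (Zusanli) point of the lower leg, with 5 min of needling and then 60 min of current at 15 Hz and 10 mA. The treatment text is identical for both, so the labels do not say what the Mock rats received, nor do they give the muscle sampled, the interval before sampling or how many rats each sample holds. The series was made to screen for signalling pathways behind the lowering of blood glucose by this treatment. Each sample was hybridised to 1 Illumina rat bead array, so no difference below has a replicate check or a test, and the effect of treatment cannot be told apart from whatever else set these samples apart.

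Glycogen is the glucose store of muscle. Glycogenin primes each particle, UDP-glucose supplies the glucose units, and glycogen synthase and the branching enzyme extend and branch the chains. Breakdown is carried out by glycogen phosphorylase, which phosphorylase kinase switches on. That kinase is built of alpha, beta, gamma and delta subunits, and it responds to calcium in contracting muscle and to adrenaline through protein kinase A. Protein phosphatase 1, held on the particle by targeting subunits, reverses these phosphorylations, which turns phosphorylase off and glycogen synthase on.

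The gene of the beta subunit, Phkb, was the member that differed most between the arrays, and its promoter window is shown because another gene starts in it on the opposite strand. The promoter windows of the 3 measured phosphorylase kinase members follow, 5′ to 3′ on the strand of the gene, from RefSeq on build GRCr8, each of 300 bases with 250 before the annotated start and 50 after it. The Phkb window is chr19:37383805-37384104 on the minus strand, and its capitals mark the 127 bases between its start and that of Itfg1. RefSeq gives Phkb a second start nearby, and the distances from the start of Itfg1 to these starts are 128 and 105 bases. The Phka1 window is chrX:71778072-71778371 on the minus strand and the Phkg1 window is chr12:32474827-32475126 on the plus strand. In these windows the capitals mark the 50 bases from the start on. Those of Phka1 open with ATG, the letters of a start codon, so its annotated start may be that of translation. Where its transcription starts is then not given by this window.
Phkb: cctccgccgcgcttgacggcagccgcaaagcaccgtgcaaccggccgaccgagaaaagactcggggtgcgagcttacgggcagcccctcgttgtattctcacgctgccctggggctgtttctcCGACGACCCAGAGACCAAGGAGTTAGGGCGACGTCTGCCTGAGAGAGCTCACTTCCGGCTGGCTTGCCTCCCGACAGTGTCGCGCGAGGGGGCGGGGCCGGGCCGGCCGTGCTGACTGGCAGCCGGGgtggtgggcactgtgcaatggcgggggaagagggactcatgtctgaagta
Phka1: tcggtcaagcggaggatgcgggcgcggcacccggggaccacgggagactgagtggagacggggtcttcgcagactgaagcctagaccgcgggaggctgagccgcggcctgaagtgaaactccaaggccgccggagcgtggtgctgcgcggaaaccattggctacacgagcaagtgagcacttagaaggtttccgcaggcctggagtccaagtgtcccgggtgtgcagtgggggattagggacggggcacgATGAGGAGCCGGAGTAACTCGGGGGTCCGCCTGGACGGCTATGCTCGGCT
Phkg1: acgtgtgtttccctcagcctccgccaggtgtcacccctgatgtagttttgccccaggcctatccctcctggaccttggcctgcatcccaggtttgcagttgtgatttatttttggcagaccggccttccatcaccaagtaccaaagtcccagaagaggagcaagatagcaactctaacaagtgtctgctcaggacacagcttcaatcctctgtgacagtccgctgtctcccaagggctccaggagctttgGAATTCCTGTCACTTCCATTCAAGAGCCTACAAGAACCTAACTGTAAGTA
The Phkb window has a G+C content of 67.0%, the Phka1 window 65.7% and the Phkg1 window 51.7%, against a median of 51.7% over 33469 RefSeq windows of this length.

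The values are non-normalized probe signals on a linear scale, followed by log2 differences, EA minus Mock, after background correction and quantile normalization. Probes with a detection p under 0.01 counted as detected. The background level was 109.9 with Mock and 115.0 with EA, and the lowest signal of a detected probe was 153.6 and 160.3. Of 22523 probes, the Mock array detected 6918 and the EA array 7235. Genes detected on both arrays numbered 5047, and their median difference was -0.06. The only measure of scatter was the gap between probes of the same gene. It gave an SD of 0.25 per probe (log2, 60 pairs of probes), 0.22 among the 30 pairs of lower signal and 0.27 among the 30 of higher signal, and the widest gap in a pair was 0.82. This scatter leaves out all variation between animals, and precision is limited by the number of arrays.

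The subunits of phosphorylase kinase did not differ alike between the arrays. Phkb, which encodes the regulatory beta subunit, had a signal of 304.5 with Mock and 645.5 with EA. It was therefore brighter on the EA array, by 1.32 on the log2 scale or 2.49-fold, which is 5.34 times the SD of a probe. This placed it 61st from the highest of the 5047 genes. Phka1, the alpha subunit of muscle, which like the beta subunit is regulatory and a target of protein kinase A, had a signal of 2166 with Mock and 2723 with EA. Its difference was 0.32, or 1.25-fold, and 1.31 times the SD of a probe. Phkg1, the catalytic gamma subunit of muscle, had a signal of 1118 with Mock and 1141 with EA, a difference of 0.01. The alpha and gamma genes thus lay within 0.48 of 0, the 95% range for 1 probe under a normal scatter, and the beta gene did not. Sizes near 0.48 were not rare, since Gbe1, at -0.48, was 807th by size among the 5047 genes. Lying past that range thus does not by itself set a gene apart from other genes.

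**Figure D1:**
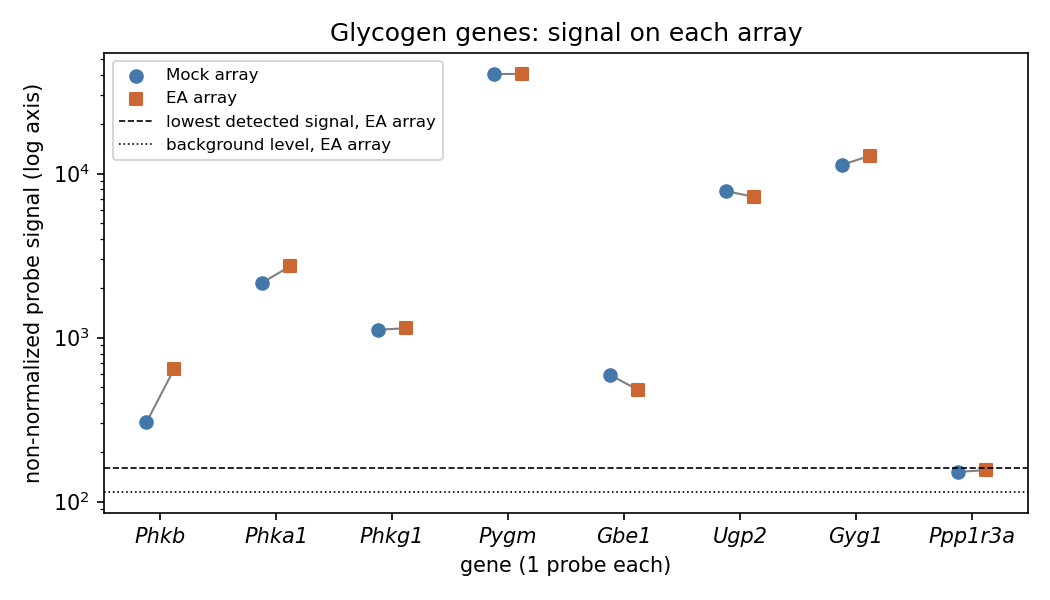
Non-normalized signal (log axis) of the 8 glycogen genes with a named probe, on the Mock array (circles) and the EA array (squares), 1 array each. The dashed line is the lowest signal of a detected probe on the EA array, 160.3, and the dotted line the background level of 115.0. Phkb climbs from 304.5 to 645.5, and Ppp1r3a lies below the dashed line on both arrays.

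The difference of Phkb exceeded that of Phka1 by 1.00 and that of Phkg1 by 1.31 on the log2 scale. Both gaps are wider than the widest seen between probes of the same gene, 0.82. With the authors' deposited table the gaps were 0.67 and 0.94, and without background correction 0.69 and 0.99. The gap to Phka1 was then below 0.82, but the scatter of probes was computed for the values as reported only. Whether the gap exceeds the scatter under those other settings was not tested. Calmodulin, the delta subunit through which the kinase binds calcium, is encoded by several genes that are not dedicated to it. Of these, Calm2 differed by 0.03 and Calm3 by -0.12. Phkg2, the gamma subunit typical of liver and testis, had a signal of 342.9 with Mock and 286.0 with EA and differed by -0.52. Its direction was thus opposite to that of Phkb, with the size just past 0.48 from 0, while the median gene lay at -0.06. The difference was smaller, at -0.34, without background correction and with the authors' deposited table. It was -0.45 with the larger offset, -0.43 with no normalization between arrays and -0.63 with scaling to the 75th percentile. The range of 0.48 was computed for the values as reported only.

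Phkb was the only glycogen member at least 2-fold different, 1 of the 7 detected on both arrays. Of all 5047 genes, 2.54% were at least 2-fold different in either direction, 2.08% being higher with EA and 0.456% lower. Among the 1682 genes in the range of mean signal that holds Phkb (log2 7.57 to 9.58), 2.62% were at least 2-fold higher with EA. With 7 members, 1 such gene gives no basis for calling the group different from other genes. The size of the difference moved with the background correction, and the Mock signal was 2.77 times the background level. It was 1.93-fold with the authors' deposited table, in which 0.931% of genes were at least 2-fold higher with EA, and lay at 1.00 on the log2 scale, a little under 2-fold, without background correction. Its order changed less, from the 54th to the 61st highest among 5047 genes over 7 ways of computing the values. These were the values as reported, no background correction, subtraction of the median undetected signal, a larger offset, scaling to the 75th percentile, no normalization between arrays and the authors' deposited table. Scaling to the 75th percentile shifts every gene by the same amount relative to no normalization, so the order is the same under both by construction.

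**Figure D2:**
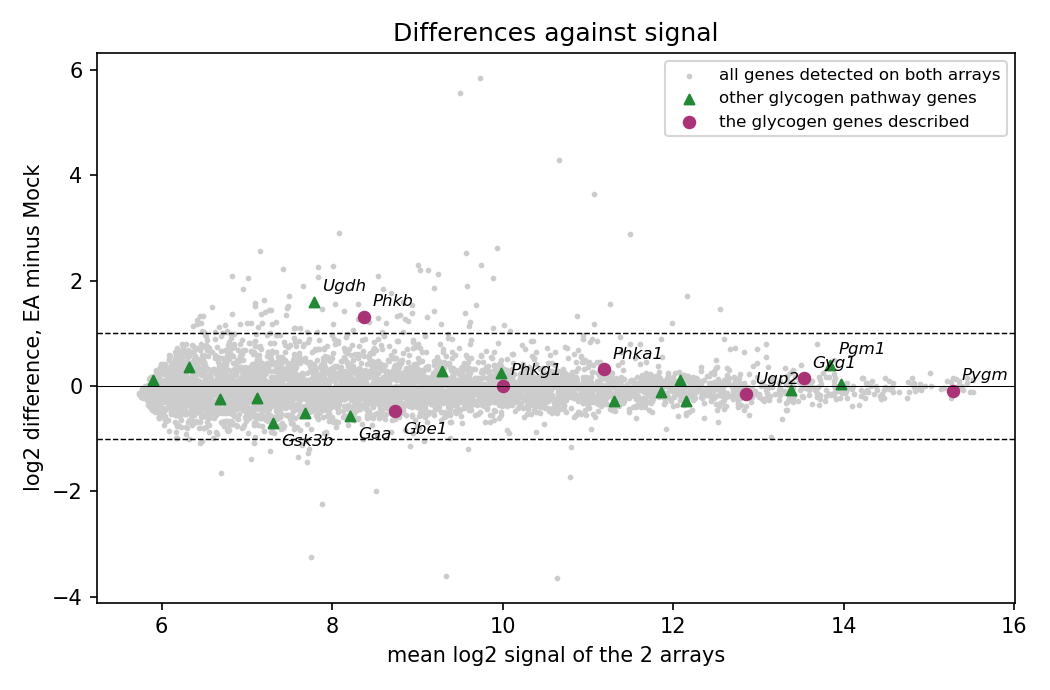
Log2 difference, EA minus Mock, against the mean log2 signal of the arrays, for the 5047 genes detected on both (grey), the 7 glycogen genes described (circles) and 17 other glycogen pathway genes (triangles). Dashed lines mark 2-fold. Phkb at 1.32 and Ugdh at 1.60 lie above the upper line, and the other members lie between the lines.

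Itfg1, the gene that starts within the Phkb window on the plus strand, encodes an integrin alpha FG-GAP repeat protein. Whether the genes share a promoter was not tested. Its signal was 1149 with Mock and 987.9 with EA, so it was lower on the array on which Phkb was higher. The difference of Itfg1 was -0.28, against 1.32 for Phkb, a gap of 1.60. Over the 7 ways of computing the values this gap ran from 1.14 to 1.66. By construction it was the same with scaling to the 75th percentile as with no normalization between arrays. Itfg1 lay within 0.48 of 0 and Phkb did not. Their annotated starts are 105 or 128 bases apart. Probes read the amount of mature transcript and do not separate its synthesis from its decay. This neighbour was looked up after the value of Phkb was known. Of the 18 nearest protein-coding neighbours of the 9 members, 11 had a named probe and 4 were detected on both arrays, and those ran from -0.28 to 0.36, with none at 2-fold.

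A search on both strands of the members' windows used 6 motifs. The GC box GGGCGG, to which Sp1 binds, was found in the windows of 4 members, Phkb, Gyg1, Gbe1 and Ugp2, and in 33.1% of all windows. In the printed Phkb window it lies 38 bases before the start, inside the stretch between the starts of Phkb and Itfg1. TGACG, the shorter site of the cAMP response element CRE, was found in Phkb and Gyg1 and in 21.2% of all windows. The whole element TGACGTCA, which contains it, was in no member window and in 1.83% of all. CACGTG, an E-box, was found in Ppp1r3c and Gyg1 and in 6.42% of all windows. The Egr motif GCGNGGGCG (4.98% of all windows) and the AP-1 motif TGANTCA (7.33%) were in no member window. None of the 6 was in the windows of Phka1, Phkg1, Pygm or Ppp1r3a. For Phka1 this covers only the window set by the annotated start, which opens with ATG.

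Glycogen breakdown was described by Pygm, the muscle form of glycogen phosphorylase and the main substrate of phosphorylase kinase. Its signal was 40422 with Mock and 40525 with EA, a difference of -0.09 after normalization. These signals were near the top of the range, whose highest values were 49524 and 52132, where arrays compress differences. Pygb, the brain form, differed by 0.35 and Pygl, the liver form, by 0.11, both from signals close to the lowest of a detected probe.

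The synthetic enzymes spread to both sides of 0 with none at 1.5-fold, a size that 10.1% of all genes reached in either direction, although Gbe1 was 1.51-fold lower with scaling to the 75th percentile. Gyg1, glycogenin, the primer of the particle, had a signal of 11313 with Mock and 12799 with EA and differed by 0.15. Ugp2, which makes UDP-glucose, had a signal of 7820 with Mock and 7222 with EA and differed by -0.15. Gbe1, the branching enzyme, had a signal of 591.6 with Mock and 481.1 with EA and differed by -0.48. It was the lowest member, 386th from the lowest of the 5047 genes, and its size was 1.93 times the SD of a probe. Gyg1 and Ugp2 lay well within the scatter of probes, and Gbe1 at its edge. The glycogen synthase gene of muscle, Gys1, had no named probe here, and the liver gene Gys2 was not detected on either array.

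Protein phosphatase 1 is brought to glycogen in muscle chiefly by the product of Ppp1r3a. Its probe had a signal of 151.9 with Mock and 155.5 with EA. Detection p-values of 0.0121 and 0.0170 missed the threshold on both arrays, whereas the 7 other members with a probe had detection p-values listed as 0. No fold is given for it. Ppp1r3b, a targeting subunit best known from liver, was detected on both arrays and differed by -0.25. Among the catalytic subunits, Ppp1ca differed by -0.29, Ppp1cb by -0.07 and Ppp1cc by 0.24. Ppp1r1a, an inhibitor of the phosphatase, differed by -0.23. None of these sizes reached 0.48.

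The median of the 7 members detected on both arrays was 0.01 and of the 6 without Phkb -0.04, against -0.06 for all genes. The median size of the difference, whatever its sign, was 0.15 for the members and 0.20 for all genes. Members above 0 numbered 4 and members below 0 numbered 3, and the same split held around the median gene. Scaling the arrays to their 75th percentile moved the median gene to -0.19, and Phkg1 then lay at -0.18 and Gyg1 at -0.03. Relative to the median gene, over the 7 ways of computing the values, Phkb stayed between 0.99 and 1.41 and Phka1 between 0.32 and 0.38. Gbe1 stayed between -0.43 and -0.33 by that measure, on the other side. By construction, that measure is the same with scaling to the 75th percentile as with no normalization between arrays.

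**Figure D3:**
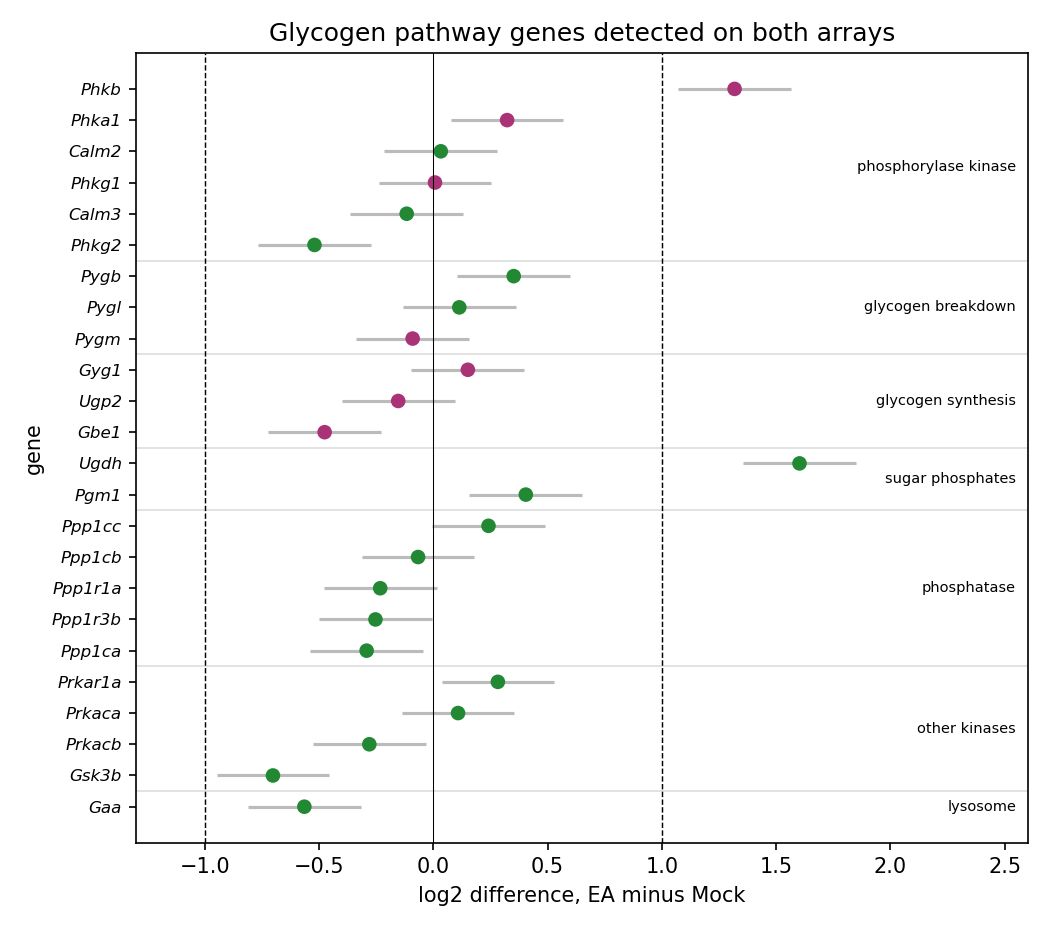
Log2 difference, EA minus Mock, of the 24 glycogen pathway genes detected on both arrays, grouped by role, with the 7 described members in purple and the 17 others in green. Bars are 1 SD of a probe either way (0.25), from pairs of probes of the same gene, and do not cover variation between animals. Dashed lines mark 2-fold, which Phkb and Ugdh passed.

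The list of 38 further genes of the pathway had 26 with a named probe. Of these, 17 were detected on both arrays, 2 on the EA array alone, 1 on the Mock array alone and 6 on neither. Over all 13337 genes with a named probe, those numbers were 5047, 412, 182 and 7696. The median of the 17 was -0.07. Of the 17, 1 was at least 2-fold higher with EA and 0 were 2-fold lower, against 2.08% and 0.456% of all genes detected on both arrays. At 1.5-fold 1 was higher and 1 lower, against 6.26% and 3.86% of all genes detected on both arrays. The higher gene was Ugdh, 32nd from the highest of all genes, which turns UDP-glucose into UDP-glucuronate, away from glycogen and towards the sugar chains of the matrix. It had a signal of 220.9 with Mock and 505.9 with EA, a difference of 1.60 or 3.04-fold, and 2.11-fold with the authors' deposited table. The lower gene was Gsk3b, a kinase that inhibits glycogen synthase, at 296.1 and 238.8, a difference of -0.70. With the authors' deposited table it was 1.37-fold lower and without background correction it differed by -0.42, so it missed 1.5-fold in both, as it did at -0.58 with the larger offset and at -0.56 with no normalization between arrays. Its paralog Gsk3a was detected on the EA array alone, with a signal of 151.0 with Mock and 162.2 with EA. These signals straddled the detection threshold, and after normalization they differed by -0.01.

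Pgm1, which interconverts glucose 1-phosphate and glucose 6-phosphate, had a signal of 12614 with Mock and 17088 with EA and differed by 0.40. Its paralog Pgm2 was detected on the Mock array alone, with signals of 159.8 and 159.7 that straddled the detection threshold. Gaa, the lysosomal enzyme that digests glycogen, had a signal of 450.9 and 355.2 and differed by -0.56. Over the 7 ways of computing the values its difference ran from -0.70 to -0.39. In protein kinase A, which phosphorylates the alpha and beta subunits of phosphorylase kinase, the catalytic subunits Prkaca and Prkacb differed by 0.11 and -0.28 and the regulatory subunit Prkar1a by 0.28. Prkar2b, another regulatory subunit, was detected on the EA array alone, with a signal of 133.5 with Mock and 171.6 with EA. The kinase genes thus lay on both sides of 0.

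The muscle markers were bright on both arrays. Of 10 listed, 6 had a named probe, all 6 were detected on both arrays, and their median difference was 0.03. Markers of other cell types and of fibre types differed too. All 7 fibroblast markers were detected on both arrays and higher on the EA array, 4 of them at least 2-fold, with a median of 1.20, and their summed signal was 10575 with Mock and 18725 with EA. Endothelial markers summed to 1111 and 1910 over 5 named probes, of which 3 were detected on both arrays, and 2 of these were at least 2-fold higher with EA. The other, Vwf, differed by 0.19. Macrophage markers summed to 1164 and 1725 over 5 named probes, with none of the 3 detected on both arrays at 2-fold. These were C1qb at 0.90, C1qc at 0.98 and C1qa at 0.01. Erythrocyte markers summed to 18532 and 31712 over 5 named probes, with none of 4 at 2-fold. Of these 4, the globin genes Hba-a1, Hbb-b1 and Hbb were higher with EA and Ahsp differed by -0.15. The sums of markers given here include undetected probes and are not corrected for background. The slow fibre markers went the other way, summing to 7985 and 3031 over 8 named probes, with 3 of 4 at least 2-fold lower with EA and a median of -2.62 over those 4, while Tnnt1 and Myl3 were detected with Mock alone. Of 7 fast fibre markers, 5 had a named probe and were detected on both arrays, summing to 121602 and 138134, with a median of 0.06 and none at 2-fold. Among them Myh4, the myosin of the fastest fibres, differed by 0.70 and Myh2, that of fast oxidative fibres, by -0.99, just short of 2-fold. The endothelial markers Cdh5 and Tek, the leukocyte marker Ptprc, the erythrocyte marker Alas2 and the slow fibre markers Tnni1 and Myl2 were not detected on either array. Of 5 adipocyte markers, 2 were detected on both arrays, Cfd differing by 0.85 and Fabp4 by -0.11. Of 4 Schwann cell markers, 1 was detected on both, Pmp22, which differed by 0.59. None of these reached 2-fold. Neither of the 2 liver markers with a named probe, of 3 listed, was detected on either array. The part of these lists in the values of Phkb, Ugdh and the other genes was not tested. In such bulk tissue, more cells of a type and more RNA per cell cannot be told apart.

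**Figure D4:**
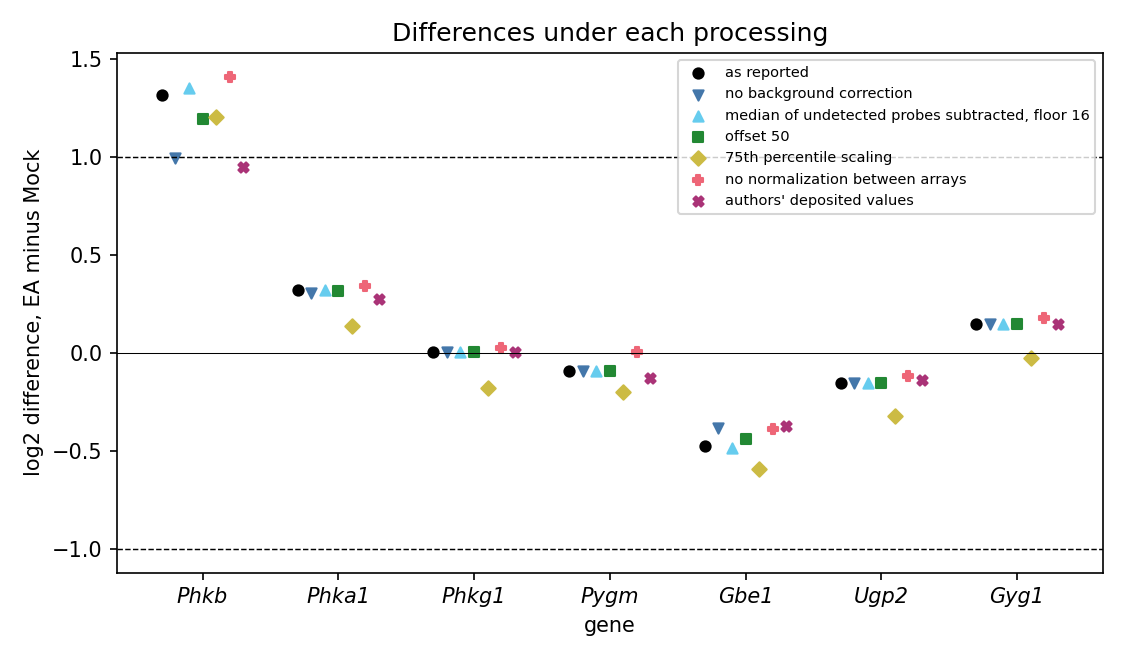
Log2 difference, EA minus Mock, of the 7 glycogen genes detected on both arrays, under the 7 ways of computing the values. Dashed lines mark 2-fold. Phkb runs from 0.95 with the authors' deposited values to 1.41 with no normalization between arrays, and no other member reaches 2-fold under any of them.

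The authors' deposited table, a set of intensities that the authors normalized, gave Phkb 505.5 with Mock and 977.1 with EA. In the authors' deposited table Phka1 stood at 2894 and 3510, a difference of 0.28, and Gbe1 at 946.2 and 731.1, a difference of -0.37. The authors' deposited table kept the sign of all 7 members. The ranking of probes in it was the same as in the non-normalized signals (Spearman rho = 1 on both arrays, across probes).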

How the data were processed

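The deposited non-normalized table holds linear probe intensity values from 2 arrays. Beside each stands a detection p-value, per the file headers. Biotinylated cRNA was made with an Ambion kit, per the labels' protocols. Scanner software and bead numbers: not given in the sources used here. A second deposited table holds intensity values that the authors had normalized, with medians of 137.3 and 137.5; how, and on which scale, is not stated, and it was taken as linear. It served as an alternative.

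Intensities were background-corrected with limma's nec (detection p-values, offset 16), quantile normalized and put on the log2 scale, with R 4.3.3, limma 3.58.1, Python 3.11.15, matplotlib 3.10.9, scipy 1.17.1, pandas 2.3.3 and numpy 2.4.6. The steps were tested on simulated data. Background levels are medians of probes with a detection p above 0.5. Of 22523 probes, 13793 had 1 gene name in the platform annotation, none had several and 8730 had none. Symbols were updated by gene identifier (13752 probes) or accession (5) against RefSeq for GRCr8, 36 kept the platform's symbol, and 4 symbols changed. All 8 named member probes matched by identifier. A gene took its brightest probe. Alternatives were no background correction, subtraction of the background level with a floor of 16, an offset of 50, scaling to the 75th percentile, no normalization, the authors' values, the mean of all detected probes, detection at p under 0.05 and a 1.5-fold threshold. All 9 members had a RefSeq promoter window. The named genes were all members, the further pathway genes with a difference of at least 0.4 in size or detected on 1 array alone, and a fixed set of core enzymes, shown whatever their value. The members, lists and settings were chosen with earlier results of these data known. The motifs and neighbours were chosen later, after the values were seen.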

Additional observations from a re-analysis of the deposited data

How the results depend on the processing

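Phkb kept its direction under the 6 other ways of computing its value, between 0.95 and 1.41 on the log2 scale, but fell under 2-fold without background correction (1.00, unrounded just below) and with the authors' deposited values (0.95). The count of members at least 2-fold different was then 0 in place of 1. The other 6 members moved by less than 1 SD of a probe. Genes at least 2-fold higher with EA numbered 105, and 53 without background correction, 47 with the authors' deposited values and 316 at 1.5-fold. Those at least 2-fold lower numbered 23, and 8, 7 and 195 under the same changes, 36 with scaling to the 75th percentile and 35 with detection at p under 0.05. The share of higher genes among those past 2-fold was 82.0%, and ran from 71.7% with that scaling to 89.0% with no normalization between arrays. The medians of the members and of the further pathway genes moved by less than 1 SD of a probe under every alternative run. The cause of these changes was not tested, other than that the background correction and the fold threshold are themselves what was changed. Signals close to background limit Phkb on the Mock array, Ugdh, Gsk3b, Phkg2, Pygb, Pygl, Ppp1r3a, Ppp1r3b and Ppp1r1a, among others. Gsk3b stood at 2.69 times the background level with Mock and 2.08 times with EA, and Phkg2 at 3.12 and 2.49 times. No paired analysis was possible because each group has 1 array, and no array could be left out for the same reason.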
